A study of Mus musculus with 3 samples.

Results

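The immediate early genes described here are 10 genes, Fos, Fosb, Jun, Junb, Jund, Atf3, Egr1, Ier2, Zfp36 and Btg2, among 11419 genes with a value in the deposited tables. They were taken by gene symbol, each symbol matched 1 gene, and all 10 had at least 10 reads over the libraries. Messenger RNA was sequenced from 3 libraries of a single sorted bone marrow population of C57BL/6 mice, an inbred strain, with no treatment and no second population. The gate took cells with CD11b, F4/80 and CD169 on their surface and without CX3CR1 (the labels write Cd11b+F4/80+CD169+CX3CR1neg and call the cells macrophages). Marrow came from tibiae and femurs crushed in a mortar, cells went straight into Trizol, and whether the libraries stem from different mice is not in the labels, nor are the age and sex of the animals. The genes were selected on their CPM in replicate 1 set against replicates 2 and 3, with results of these libraries known, so that contrast is described below without a test.

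Immediate early genes are switched on within minutes of a stimulus, without new protein synthesis, by transcription factors that already sit in the cell, among them serum response factor and CREB. Their messenger RNAs are short-lived, so their levels can move quickly in either direction, and mechanical or enzymatic handling of tissue is known to induce them. Fos and Jun family proteins pair to form AP-1, a dimeric transcription factor. Fos proteins need a Jun partner to bind DNA, while Jun proteins can also pair with each other.

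The members were short genes with few exons. In the GENCODE gene models of GRCm38, the assembly also called mm10, their median span was 3711 bases, against 22598 bases over the 11407 listed genes with a model, and their coding transcripts had a median of 2 exons, against 9. Fos lies at chr12:85473890-85477273 on the plus strand, Fosb at chr7:19302696-19310051 on the minus strand and Jun at chr4:95049034-95052222 on the minus strand. Zfp36 lies at chr7:28376784-28380253 on the minus strand and Btg2 at chr1:134075170-134079120 on the minus strand. Atf3, at chr1:191170296-191218039 on the minus strand, was the exception in span with 47744 bases. All of these intervals cover whole protein-coding genes, introns and untranslated regions included.

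Short life of such messages is often encoded in the 3′ untranslated region by AU-rich elements, built on the pentamer ATTTA, which recruit decay factors such as the Zfp36 protein. Of the 10 members, 9 held at least 1 ATTTA in the 3′ untranslated region of the coding transcript, against 65.8% of 10601 listed genes with such a region. At least 3 were found in 5 members (Fos, Jun, Atf3, Zfp36 and Btg2), against 34.2% of genes, and the longer form TTATTTATT was found in Fos and Zfp36, against 7.22% of genes. Fos carried 4 pentamers in 815 bases, Fosb 1 in 2145 bases, Junb 2 in 485 bases, Jund 1 in 533 bases, and Ier2 none in 755 bases. The densest 30-base stretches of 5 members are shown to set Fosb beside some of the other members, with each ATTTA in capitals, read from GENCODE transcripts:
Fosb: cccacccccagctATTTAtccctttcctgg
Fos: ttgtgttttcaATTTATTTAttaagatgga
Jun: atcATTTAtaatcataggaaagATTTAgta
Zfp36: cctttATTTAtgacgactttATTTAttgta
Btg2: aATTTAtttgtagatgtgtgcaatATTTAc

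Fos shows 2 overlapping pentamers here, Jun, Zfp36 and Btg2 show 2 that stand apart, and Fosb shows its single pentamer. These letters describe the transcripts and were not tested against the read counts.

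Promoters were compared over the window of 250 bases before to 50 bases after the transcription start, from RefSeq on GRCm38.p6, which gave a window for 8 members (all but Egr1 and Ier2). The core of the CREB site, TGACG on either strand, was found in 5 of these 8 (Fos, Fosb, Junb, Atf3 and Btg2), against 20.8% of 32851 windows. The full palindrome TGACGTCA, which contains TGACG, was found in Btg2 alone of the 8, against 1.79% of windows. The AP-1 site TGACTCA, on either strand, was in none of the 8, against 5.20% of windows. A CArG box, the site of serum response factor, lay in the window of Zfp36, against 1.63% of windows. GCGGGGGCG, a site of Egr proteins, was found on either strand in Fosb and Zfp36, against 2.91% of windows. TATAAA on the gene strand was present in Fos and Junb, against 8.32% of windows. The windows of Fosb, Fos and Jun are shown, since their levels followed 3 separate patterns over the libraries, with TGACG (either strand) and TATAAA (gene strand) in capitals, 5′ to 3′ on the gene strand:
Fosb (chr7:19309996-19310295, minus strand): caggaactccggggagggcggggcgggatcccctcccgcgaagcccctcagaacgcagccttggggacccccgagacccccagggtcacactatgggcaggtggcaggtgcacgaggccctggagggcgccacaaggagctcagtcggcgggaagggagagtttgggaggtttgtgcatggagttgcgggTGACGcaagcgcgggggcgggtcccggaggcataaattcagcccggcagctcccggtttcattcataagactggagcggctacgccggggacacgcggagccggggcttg
Fos (chr12:85473640-85473939, plus strand): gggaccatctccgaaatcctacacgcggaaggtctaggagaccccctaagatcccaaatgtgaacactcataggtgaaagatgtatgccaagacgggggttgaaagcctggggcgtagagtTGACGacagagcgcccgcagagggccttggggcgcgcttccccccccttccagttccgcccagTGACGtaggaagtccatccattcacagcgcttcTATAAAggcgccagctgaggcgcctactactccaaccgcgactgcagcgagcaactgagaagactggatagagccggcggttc
Jun (chr4:95052173-95052472, minus strand): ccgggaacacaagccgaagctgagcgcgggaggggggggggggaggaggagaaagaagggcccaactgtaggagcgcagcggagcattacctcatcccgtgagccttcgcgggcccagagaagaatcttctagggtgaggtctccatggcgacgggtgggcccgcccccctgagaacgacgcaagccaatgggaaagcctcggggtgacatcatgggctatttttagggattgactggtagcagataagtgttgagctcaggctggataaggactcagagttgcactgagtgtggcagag

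Fosb has 1 TGACG and no TATAAA in this window, Fos has 2 TGACG and 1 TATAAA, and the Jun window has neither. A match is only a match of letters, and its absence from 300 bases says nothing of the rest of a promoter.

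Of the 10 immediate early genes, Fosb alone was at least 2-fold higher in replicate 1 than in both other libraries. Fos, its closest relative here, was level over all 3 libraries, and Jun set replicate 2 apart instead, where it was low. The levels are counts per 1000000 reads (CPM), and the library totals were 5150020 reads for replicate 1, 40149274 for replicate 2 and 37604930 for replicate 3. Among all 11123 genes with at least 10 reads over the libraries, 3.42% were at least 2-fold higher in replicate 1 than in both others and 5.57% were at least 2-fold lower, and no member was among the lower genes. A gene with 0 reads in replicate 1, the shallowest library, counted as lower whenever both others had any reads. The part of depth in the 5.57% was not tested. With a ratio called only when both 95% counting intervals lay past 2-fold, the share higher was 1.13% of genes, with Fosb again the sole member, and the share lower was 0.629%, with no member. Among genes with at least 100 reads, 1.78% were 2-fold higher in replicate 1 (1 of 9 members, Fosb) and 4.24% lower (no member). Fosb entered this count only through replicate 1, which held 99 of its 113 reads, so its call there is not separate evidence. Of the genes averaging 10 CPM or more, which leaves out Fosb, 0.439% were higher and 0.906% lower, with none of the 7 members that enter. No member was at least 2-fold higher than both others in replicate 2 (1.89% of genes) or replicate 3 (3.06%).

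Fosb, an AP-1 subunit whose protein can build up with repeated stimulation, was at 19.2 CPM in replicate 1, 0.249 CPM in replicate 2 and 0.106 CPM in replicate 3. The values rested on 99 reads in replicate 1, the shallowest library, against 10 and 4 reads in the deeper libraries, so replicate 1 stood alone and the other 2 libraries were near the limit of detection. A count of 0 would have allowed up to 0.583, 0.0747 and 0.0798 CPM in replicates 1, 2 and 3. The ratio of replicate 1 was 77.2 to replicate 2 (95% exact counting interval 40.3 to 166) and 181 to replicate 3 (68.4 to 676). Between replicates 2 and 3 the ratio was 2.34, with an interval from 0.675 to 10.2, which includes 1. On its point values Fosb also counted as 2-fold lower in replicate 3 than in both others, as did 4.23% of genes, on 4 reads against 10. Genes with at least 10 CPM in replicate 1 were ranked by the ratio of CPM + 1 to the higher of the other libraries. Gm26917 and Gm10800 held ranks 1 and 2, Fosb rank 3 and n-R5-8s1 rank 4. Both the rank of Fosb and the 10 CPM limit rest on the replicate 1 values used to select the genes, so this rank is a description only.

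Fos, the founding member of the family, was at 104 CPM in replicate 1, 103 CPM in replicate 2 and 98.3 CPM in replicate 3, a mean of 102 ± 3.02 CPM (SD, n = 3). No library stood out. The ratio of replicate 1 was 1.01 to replicate 2 (interval 0.918 to 1.10) and 1.06 to replicate 3 (0.963 to 1.16), and both intervals include 1. Between the deeper replicates 2 and 3 the Fos ratio was 1.05, with an interval from 1.004 to 1.10, which lies just above 1. The range of log2(CPM + 1) over the libraries was 0.078 for Fos, smaller than in all but 1.83% of genes, and 4.19 for Fosb, larger than in 99.96% of genes. Per kb of merged exons, Fosb came to 6.97% of the Fos level in replicate 1, 0.0909% in replicate 2 and 0.0408% in replicate 3.

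**Figure D1:**
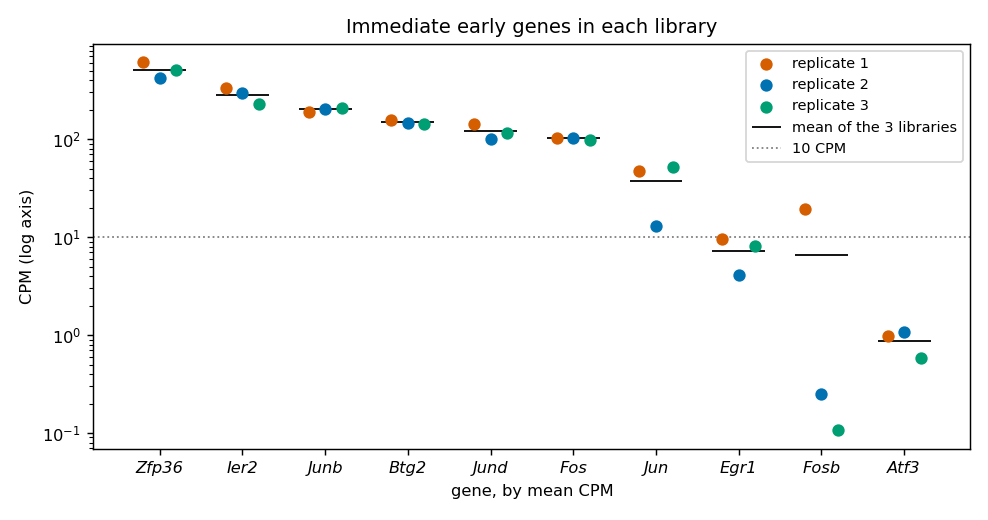
CPM (log axis) of the 10 immediate early genes, ordered by mean, in replicates 1, 2 and 3, with the mean as a line and 10 CPM dotted. Fosb is at 19.2 CPM in replicate 1 and under 1 CPM in the others, Jun is lowest in replicate 2 at 12.9 CPM, and the 6 genes of highest mean differ little between libraries.

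Among the Jun subunits, Jun was the gene that differed. Jun, a strong activator within AP-1, was at 46.8 CPM in replicate 1, 12.9 CPM in replicate 2 and 51.8 CPM in replicate 3 (241, 516 and 1948 reads). Replicate 2 was thus the low library, and replicates 1 and 3 lay close together. The ratio of replicate 1 was 3.64 to replicate 2 (interval 3.11 to 4.25) and 0.903 to replicate 3 (0.787 to 1.03). Replicate 2 was at least 2-fold lower than both others in 2.55% of genes, and Jun was the single member among them. Its mean was 37.1 ± 21.2 CPM (SD, n = 3), and its range of 1.93 on the log2(CPM + 1) scale exceeded that of 98.3% of genes.

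Junb, which often acts as a weaker activator than Jun, was at 192, 203 and 209 CPM in replicates 1, 2 and 3. It was the sole member with its lowest value in replicate 1, which was the lowest library for 42.9% of genes, by a ratio of 0.945 to replicate 2 (interval 0.884 to 1.01) and 0.915 to replicate 3 (0.855 to 0.978). Jund, the Jun subunit that many resting cells express, was at 144 CPM in replicate 1, 99.8 CPM in replicate 2 and 117 CPM in replicate 3. Replicate 1 was highest, 1.44-fold over replicate 2 (1.33 to 1.56) and 1.23-fold over replicate 3 (1.13 to 1.33). Per kb of merged exons, Jun came to 17.0%, 6.74% and 23.2% of the Jund level in replicates 1, 2 and 3. In every library, then, the Jund level per kb was above that of Jun.

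Annotated genes on the opposite strand share exonic bases with Jun (Junos), Junb (Prdx2), Jund (Gm11175) and Zfp36 (Gm44710), and the strand setting of the counting is not given in the sources used here. Whether reads from those bases were assigned by strand is therefore not known here. Junos was at 10.7, 12.03 and 9.20 CPM in replicates 1, 2 and 3, with no low value in replicate 2. Prdx2 was at 42.1, 25.8 and 21.2 CPM and Gm11175 at 6.41, 3.21 and 4.04 CPM in the same order. No annotated gene overlapped Fosb, Fos, Egr1, Ier2 or Btg2.

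Atf3, a stress-induced repressor of the ATF and CREB family, was low in all libraries, at 0.971, 1.07 and 0.585 CPM in replicates 1, 2 and 3. These values stood on 5, 43 and 22 reads, so that replicate 1 was near its floor of 0.583 CPM. The ratio of replicate 1 was 0.907 to replicate 2 (interval 0.280 to 2.28) and 1.66 to replicate 3 (0.491 to 4.49), and both intervals include 1. Between the deeper replicates 2 and 3 the ratio was 1.83, with an interval from 1.07 to 3.21, which lies above 1. Egr1, a zinc finger transcription factor of the first wave after growth factor stimulation, was at 9.51, 4.11 and 8.14 CPM (49, 165 and 306 reads). Like Jun it was lowest in replicate 2, with replicate 1 at 2.32-fold (interval 1.65 to 3.20) of replicate 2 and 1.17-fold (0.847 to 1.58) of replicate 3. The last interval includes 1, so replicates 1 and 3 were not separated beyond counting error.

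The remaining members were abundant and differed by less than 1.5-fold between any 2 libraries. Zfp36, the gene of the messenger RNA decay factor tristetraprolin, was the highest member in CPM, at 608 in replicate 1, 425 in replicate 2 and 507 in replicate 3. Ier2, a nuclear protein of the immediate early class, was at 329.5, 296 and 230.5 CPM in the same order. Btg2, an antiproliferative factor that binds the CCR4-NOT deadenylase, was at 159, 146 and 142 CPM. Each was highest in replicate 1. Their ratios of replicate 1 to replicate 2 were 1.43 for Zfp36 (interval 1.38 to 1.49), 1.11 for Ier2 (1.06 to 1.17) and 1.09 for Btg2 (1.01 to 1.17). To replicate 3 they were 1.20 for Zfp36 (1.15 to 1.25), 1.43 for Ier2 (1.36 to 1.51) and 1.12 for Btg2 (1.04 to 1.20). These intervals hold counting error only and do not include the spread between animals or library preparations.

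**Figure D2:**
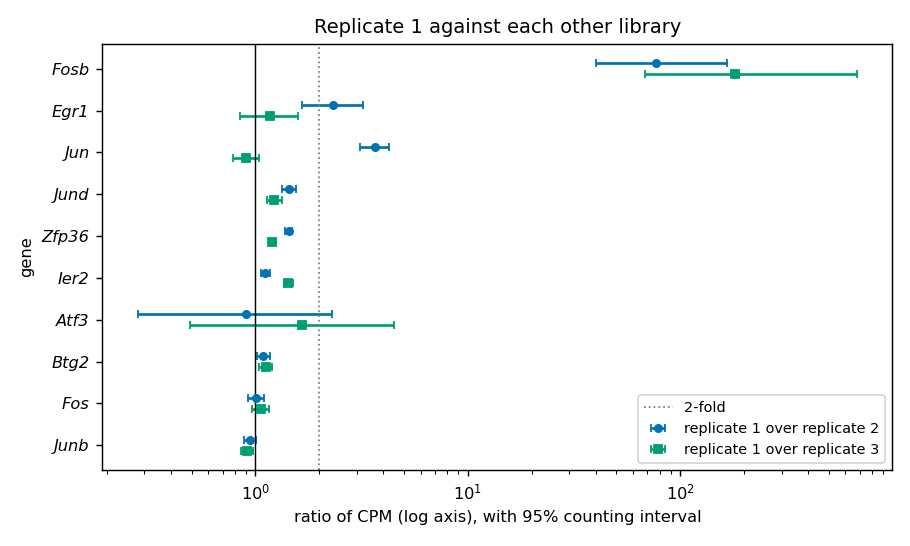
Ratio of CPM in replicate 1 to that in replicate 2 (circles) and replicate 3 (squares) for each immediate early gene, with 95% exact counting intervals on a log axis, a line at 1 and a dotted line at 2-fold. Both Fosb intervals lie beyond 40-fold, Jun and Egr1 pass 2-fold against replicate 2 alone, and the Atf3 intervals are wide.

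Replicate 1 held the highest value of 7 members (Fosb, Fos, Jund, Egr1, Ier2, Zfp36 and Btg2), against 32.1% of all genes tested. In 5 of them (Fosb, Jund, Ier2, Zfp36 and Btg2) both counting intervals lay above 1, against 14.2% of genes. Both intervals lay below 1 in none of the 10, against 21.5% of genes. Apart from Fosb, the differences in these 5 were under 1.5-fold. The median log2 ratio of CPM + 1, replicate 1 over the mean of replicates 2 and 3, was 0.35 over the members and -0.085 over all genes. Both ratios of a gene share replicate 1, so they are not separate evidence. Together the members made up 0.161% of the library in replicate 1, against 0.129% and 0.137% in replicates 2 and 3. Without Fosb these shares were 0.159%, 0.129% and 0.137%, so Fosb made up little of the total.

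**Figure D3:**
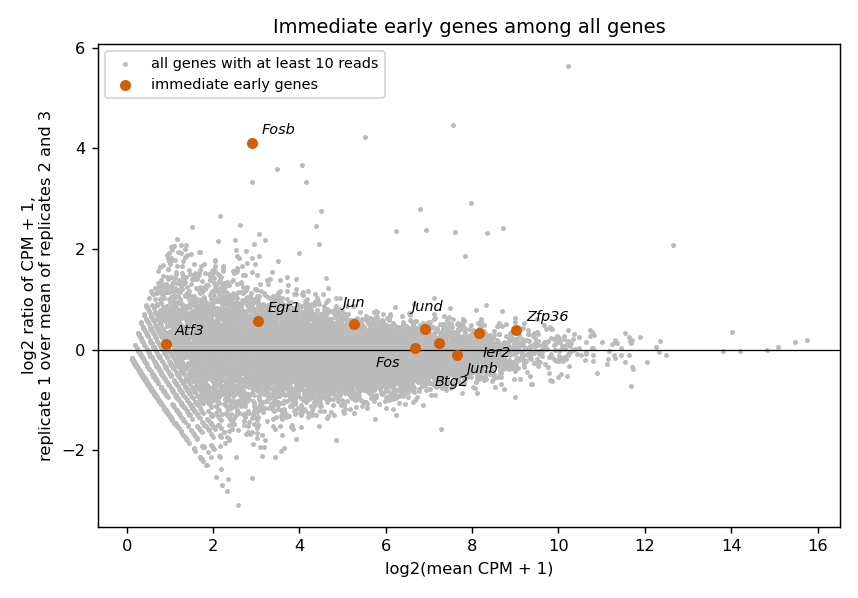
Log2 ratio of CPM + 1, replicate 1 over the mean of replicates 2 and 3, against log2(mean CPM + 1) for 11123 genes (grey) and the immediate early genes (orange). Fosb lies at the upper edge of all genes of its level, and the other 9 lie between -0.10 (Junb) and 0.56 (Egr1).

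Most of these genes were expressed well above 10 CPM in all 3 libraries. In a limma test of log2(CPM + 1) against 10 CPM over all genes, 7 members were above, namely Zfp36, Ier2, Junb, Btg2, Jund, Fos and Jun, against 58.8% of genes. At the low end of these stood Jun, 1.57 over 10 CPM on the log2(CPM + 1) scale (SE 0.25, limma adjusted p = 4.18e-06), and at the high end Zfp36, 5.53 over it (SE 0.11, limma adjusted p = 8.47e-22). Below 10 CPM were Atf3 (-2.56, SE 0.33, limma adjusted p = 3.25e-07) and Fosb (-1.86, SE 0.52, limma adjusted p = 0.00213), against 28.3% of genes. The call for Fosb averages a library above 10 CPM with 2 far below it, and its SE is drawn by limma towards that of other genes. It was lost in edgeR on the recovered reads (adjusted p = 0.391) and without replicate 2 (limma adjusted p = 0.331) or replicate 3 (limma adjusted p = 0.190). Egr1, at 7.25 ± 2.81 CPM (SD, n = 3), was called neither way (-0.48, SE 0.25, limma adjusted p = 0.0820).

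Further gene positions on GRCm38 were chr8:84974484-84978718 (minus strand) for Junb, chr8:70698949-70700616 (plus) for Jund, chr8:84661331-84662852 (minus) for Ier2 and chr18:34859823-34864984 (plus) for Egr1. Set side by side per kb of merged exons, Ier2 had the highest level at 187 ± 33.1 CPM per kb, followed by Zfp36 (148 ± 26.5), Junb (87.5 ± 3.91), Jund (72.04 ± 13.3), Btg2 (54.2 ± 3.17) and Fos (43.3 ± 1.28; SD, n = 3 for each). Jun followed at 11.6 ± 6.645 CPM per kb, then Egr1 (1.62 ± 0.626), Fosb (1.05 ± 1.76) and Atf3 (0.407 ± 0.119). Ranges over the libraries overlapped between Ier2 and Zfp36, between Junb and Jund, between Egr1 and Fosb, and between Fosb and Atf3. Other neighbours in this order did not overlap. The order is a description of levels and was not tested.

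Most other genes known from fast responses did not share the pattern of Fosb, though a larger share than among all genes was higher in replicate 1. Over 6 lists of related genes, 104 genes had at least 10 reads. Of these, 9 were at least 2-fold higher in replicate 1 than in both others, beside 3.42% of all genes. At least 2-fold lower were 3, a smaller share than the 5.57% of all genes. The lists were chosen with earlier results of these libraries known, so these shares are a description. Among other fast-response transcription factors, 2 of 23 were higher and 1 was lower. Nr4a2, an orphan nuclear receptor, was at 2.14, 0.374 and 0.665 CPM in replicates 1, 2 and 3, and Nr4a3 at 1.75 and 0.598 CPM in replicates 1 and 2 and 0 reads in replicate 3. Replicate 1 held 11 reads of Nr4a2 and 9 of Nr4a3. Counting intervals reached below 2-fold for Nr4a2 over replicate 3 (1.43 to 6.77) and for Nr4a3 over replicate 2 (1.20 to 6.51). Hes1, the lower gene, had 0, 7 and 40 reads. The abundant genes of the list, Cebpd (322, 350.1 and 294 CPM) and Klf6 (204, 209.6 and 289.7 CPM), were not past 2-fold, and Egr2 had 0 reads in every library. Named after its values were seen, Nr4a1 was highest in replicate 1 (15.5, 7.32 and 8.67 CPM). Fosl2, named in the same way, was lowest there (108, 152 and 188 CPM), and neither was past 2-fold against both others.

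Feedback and stress genes of the fast response gave 2 higher and 2 lower genes of 28. Plk3, a stress-responsive polo-like kinase, was at 39.6 CPM in replicate 1, 17.8 CPM in replicate 2 and 15.1 CPM in replicate 3, and Dusp2, a phosphatase of MAP kinases, at 4.08, 0.822 and 0.878 CPM. Socs3, a feedback inhibitor of cytokine signalling, was lower in replicate 1, at 6.21, 13.6 and 26.4 CPM, as was Zfp36l1, a relative of Zfp36, at 2.72, 6.85 and 10.1 CPM. Mcl1 (294, 319 and 362 CPM) and Btg1 (224, 189.6 and 195 CPM), the most abundant of the rest, were not past 2-fold. Dusp1, a phosphatase induced together with Fos in many cells and named here after its values were seen, was at 75.9, 86.3 and 56.5 CPM. Also named after their values were seen, Ppp1r15a (16.7, 8.27 and 8.43 CPM) and Ier3 (27.2, 14.4 and 19.4 CPM) were highest in replicate 1. Sgk1 (18.1, 35.0 and 39.0 CPM) and Tob2 (34.4, 56.0 and 60.3 CPM) were lowest there. The median log2 ratio of CPM + 1, replicate 1 over the mean of replicates 2 and 3, was -0.18 over this list and -0.085 over all genes.

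None of 14 other AP-1 and ATF partners passed 2-fold in either direction, with Mafg at 201, 182 and 196 CPM and Atf4 at 175, 126 and 154 CPM. Of 18 upstream regulators, Mkl2, a co-activator of serum response factor, was higher in replicate 1 (18.8, 5.48 and 7.79 CPM), and none was lower. The kinases Rps6ka1 (761, 791 and 789.7 CPM) and Mapk3 (719.6, 584 and 580.5 CPM) were not past 2-fold. Among 11 heat shock genes, which tissue dissociation induces together with immediate early genes, none passed 2-fold, with Hsp90ab1 at 533, 483 and 594 CPM and Hspa8 at 368, 270.0 and 325 CPM. Hspa1a had 0 reads in every library and Hspa1b had 0, 6 and 0 reads in replicates 1, 2 and 3, both in the heat shock list.

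Inflammatory transcripts with AU-rich elements held the largest share of higher genes among these lists, with 4 of 10 higher in replicate 1 and none lower. Ccl3, a chemokine gene, was at 42.1 CPM in replicate 1, 3.96 CPM in replicate 2 and 0.824 CPM in replicate 3. Ptgs2, which encodes cyclooxygenase 2, was at 10.9, 1.69 and 1.54 CPM. Ccl4 had 28 and 55 reads in replicates 1 and 2 and 0 in replicate 3, and Il1a had 4, 13 and 0 reads, so its ratio rests on very few reads. Osm (77.3, 59.5 and 44.1 CPM) and Il1b (35.7, 53.9 and 63.1 CPM) were not past 2-fold. The choice of this list followed earlier results for these libraries, and its count is a description.

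**Figure D4:**
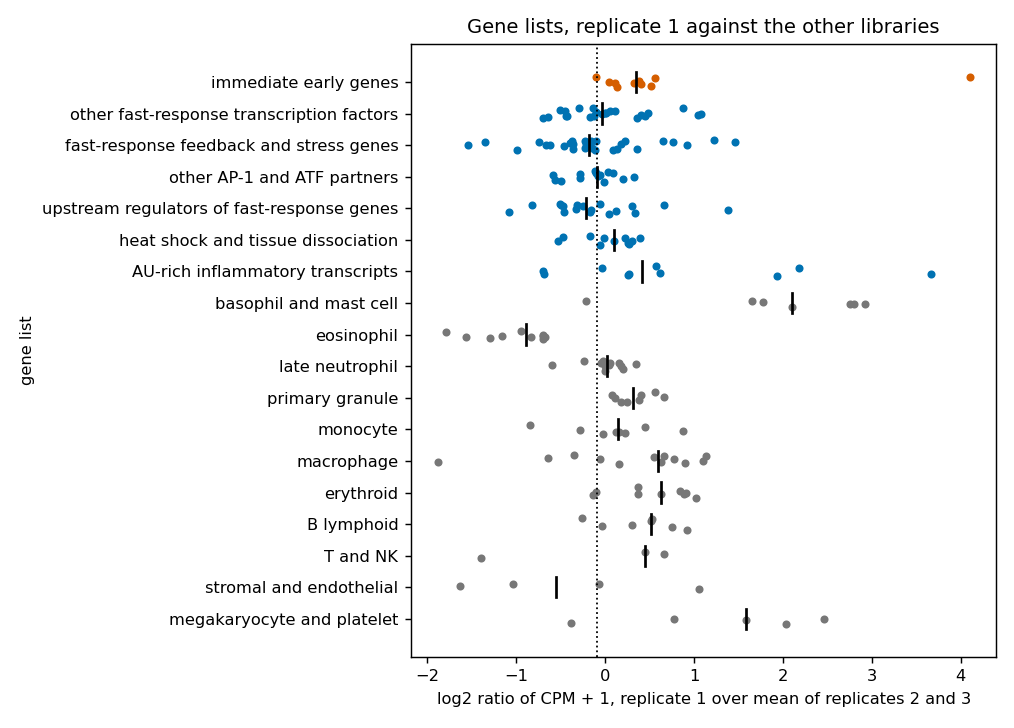
Log2 ratio of CPM + 1, replicate 1 over the mean of replicates 2 and 3, for each gene of the immediate early genes (orange), related lists (blue) and cell type markers (grey), with list medians as bars and the median of all genes dotted at -0.085. The basophil and mast cell list (median 2.10) and the megakaryocyte and platelet list (1.59) lie to the right with Fosb, and the eosinophil list (-0.89) lies to the left.

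Cell type markers differed between the libraries as well. In bulk samples, fewer cells of a type and less RNA per cell cannot be told apart. Of 7 basophil and mast cell markers, 6 were at least 2-fold higher in replicate 1 (Prss34, Mcpt8, Gata2, Cpa3, Ms4a2 and Cyp11a1), and the list summed to 1529.9 CPM there, against 746 and 813 CPM in replicates 2 and 3. Prss34, a basophil protease, was at 596 CPM in replicate 1, 74.5 CPM in replicate 2 and 81.2 CPM in replicate 3, while Hdc, the histidine decarboxylase that makes histamine, was at 552, 609 and 675 CPM. Of 5 megakaryocyte and platelet markers, 3 were higher in replicate 1 (Itga2b, Vwf and Pf4, the last with 0 reads in replicates 2 and 3), with sums of 141, 111 and 126 CPM. Itgb3, the most abundant of the 5, was instead lowest in replicate 1, at 81.9, 99.1 and 116 CPM. Of 10 eosinophil markers, none was higher and 3 were at least 2-fold lower, with sums of 639, 1101 and 1511 CPM. Many but not all markers of these lists differed in replicate 1, where Fosb was high, and their part in the Fosb value was not tested.

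Among the other marker lists, none of 12 late neutrophil, 8 primary granule, 9 erythroid or 7 B lymphoid markers passed 2-fold in either direction. Their sums in replicates 1, 2 and 3 were 223532, 224823 and 188023 CPM for late neutrophil genes, 9223, 7335 and 7794 CPM for primary granule genes, 1050.1, 589 and 571 CPM for erythroid genes, highest in replicate 1, and 237, 202 and 249.9 CPM for B lymphoid genes. Monocyte markers had 1 of 8 lower (Ace) with sums of 1190.3, 1059.7 and 964 CPM, and Vcan was at 0 reads in every library. Ace had 0, 6 and 54 reads, and its interval for replicate 1 over replicate 2 ran from 0 to 6.62. Stromal and endothelial markers had 1 of 4 lower (Col1a1, with 5, 177 and 219 reads), with sums of 18.8, 15.3 and 17.8 CPM and Kdr at 0 reads throughout. Of 3 T and NK markers, 1 was lower (Cd4, with 0, 101 and 28 reads), with sums of 111, 77.8 and 87.0 CPM. These calls of lower genes rest on few or no reads in replicate 1, the shallowest library. Among 12 macrophage markers, Fcgr1 was higher and Siglec1 lower in replicate 1, and the list summed to 279, 252 and 272 CPM. The complement genes C1qa (27.6, 16.3 and 12.3 CPM), C1qb (20.4, 12.9 and 10.1 CPM) and C1qc (21.7, 11.8 and 7.39 CPM), named after their values were seen, were also highest in replicate 1, without passing 2-fold against both others. The part of the erythroid and macrophage genes in the Fosb value was not tested. The gene of the sorted antigen CD169, Siglec1, was at 0.388, 3.66 and 4.57 CPM and that of F4/80, Adgre1, at 18.6, 26.5 and 21.4 CPM, both far under the neutrophil genes, so the label of macrophages was not matched by the most abundant markers.

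Replicate 1 also stood apart in some abundant non-coding RNA. Chosen after their values were seen, Gm26917 was at 3459 CPM in replicate 1, against 67.8 and 69.4 CPM in replicates 2 and 3, and the nuclear RNA Malat1 was at 419.6 CPM, against 70.0 and 94.5 CPM. The share of mitochondrially encoded genes was 0.802% in replicate 1, 0.591% in replicate 2 and 0.800% in replicate 3, and that of ribosomal protein genes was 2.09%, 1.71% and 1.38%. Over genes, the Pearson correlation of log2(CPM + 1) was 0.971 between replicates 1 and 2, 0.956 between replicates 1 and 3 and 0.978 between replicates 2 and 3, across 11123 genes that are not independent replicates. The part of these differences in the Fosb value was not tested.

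The genes whose profile over the 3 libraries was nearest to that of Fos, among those averaging 10 CPM or more, were Anks3, Gps2, Mapre2, Dbnl and Ptges3. Likeness was the Euclidean distance between centred log2(CPM + 1) profiles over the 3 libraries, and it lay between 0.0018 for Anks3 and 0.0101 for Ptges3. Anks3 was at 28.9, 28.7 and 27.3 CPM and Dbnl at 389.9, 390.5 and 369 CPM in replicates 1, 2 and 3. The distance from Fos to the other immediate early genes was smallest for Btg2 (0.083) and Junb (0.15) and largest for Jun (1.55) and Fosb (3.32). Jund and Zfp36 were the closest pair of members, at 0.025.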

How the data were processed

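Messenger RNA libraries (NEXTflex kit, NextSeq500 sequencer, per the labels) of 1 group with 3 replicates were analysed. The authors deposited CPM, counts per 1000000 reads assigned to the listed genes. FastQC, STAR, featureCounts and edgeR, and the builds mm10 and GRCh38, are named per the submitters' processing notes; versions, roles, annotation, strand setting and gene filter are not given in the sources used here. Each gene was kept once (44 repeated entries dropped). Whole reads were recovered from the CPM steps, with 100% of values whole within 0.01 reads, which gave the totals printed; 10 CPM was 51.5, 401 and 376 reads in replicates 1, 2 and 3.

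A gene was called higher or lower in replicate 1 at 2-fold past both others, with no test. Ratios have 95% exact (Clopper-Pearson) counting intervals. Intervals and floors (3 reads) cover counting error only. Levels were tested against 10 CPM with limma 3.58.1 in R 4.3.3 on log2(CPM + 1), two-sided, with Benjamini-Hochberg adjustment over 11123 genes; edgeR 4.0.16 and DESeq2 1.42.0 on the recovered reads were alternatives. These p-values rest on the spread between the 3 libraries, which may be technical. In limma the variance of each gene is drawn towards that of genes of similar level. A printed SE or p is thus not the gene's own spread alone. With 1 added to each CPM, folds of low genes come out too small. The scripts were tested on simulated data. Lengths, 3′ untranslated regions and overlaps came from GENCODE M21, using the transcript with the longest coding sequence. Members and lists were chosen with earlier results of these data known. Named were all members, per related list up to 4 genes of highest mean past 2-fold and up to 2 not past it, per cell type list up to 2 of highest mean and those at 0, and the 5 genes nearest to Fos; other genes were chosen after their values were seen.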

Additional observations from a re-analysis of the deposited data

How the results depend on the processing

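Fosb was higher in replicate 1 than in both other libraries under every setting run (1.5-fold and 3-fold limits, TMM scaling, DESeq2 size factors, CPM + 1, and intervals past 2-fold, the last chosen after seeing the data). The share of all genes higher in replicate 1 was 7.29% at 1.5-fold and 1.49% at 3-fold. Without replicate 2, 1 member (Fosb) was at least 2-fold higher, against 8.12% of genes. Without replicate 3 there were 3 (Fosb, Jun and Egr1), against 6.94% of genes, since Jun and Egr1 passed against replicate 2 alone. No member was 2-fold lower in any setting. The background share of 3.42% was 0.439% among genes averaging 10 CPM or more (7 members enter, none called). It was 1.78% among genes with at least 100 reads, a limit that Fosb met only through replicate 1. The number of genes below 10 CPM was 3153, and at a level of 5 CPM 1870 were below that level. Members below numbered 2, and 1 (Atf3) with no filter on low counts, in edgeR, in DESeq2 and at 5 CPM, and 1 to 3 without single replicates; 7 members were above in every setting. The Egr1 level turned to 0.39 above at 5 CPM, by the lower level itself, and was called below 20 CPM (-1.41), by the higher level itself. A call of Egr1 below 10 CPM appeared without replicate 1 (-0.69). Of 110 repeats of the members' levels, 101 kept their direction and side of the threshold. No paired analysis was possible because the labels give 1 group. Depth limits Atf3 in replicate 1, and Fosb in replicates 2 and 3.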

Other observations

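Profiles nearest to those of Fosb and Jun were also looked up, after their values were seen. Nearest to Fosb among genes averaging 10 CPM or more were Gm10717, Gm10801, Gm10800, n-R5-8s1 and Ccl3, at distances from 0.47 to 0.92 on the centred log2(CPM + 1) scale over the 3 libraries. Gm10800 was at 513 CPM in replicate 1, against 30.3 and 14.5 CPM in replicates 2 and 3, and n-R5-8s1 at 123 CPM, against 8.44 and 2.95 CPM. Ccl3, a chemokine gene, was at 42.1 CPM, against 3.96 and 0.824 CPM. Nearest to Jun were Prkdc, Atic, Adgrg1, Lockd and Rsl24d1, at distances from 0.56 to 0.67. Prkdc, the catalytic subunit gene of DNA-dependent protein kinase, was at 11.8, 5.16 and 14.0 CPM in replicates 1, 2 and 3, and Atic, a purine synthesis gene, at 25.05, 11.9 and 28.5 CPM, both lowest in replicate 2 as Jun was.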
